A study of Caenorhabditis elegans with 12 samples.

Results

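The genes described here are the BATH and MATH domain genes of *Caenorhabditis elegans*, found as every row of the deposited count table whose symbol is bath or math followed by a number. The rule gave 93 of the 21882 genes in the table, 44 *bath* and 49 *math* genes. The family was picked because 1 member, *bath-20*, differed between the neuronal rescue strain and the *raga-1* mutant. Its values were 0.894, 0.709, 0.868 and 0.799 CPM (normalised read count, scaled to library size) in mutant replicates 1 to 4 and 2.49, 2.09, 1.37 and 2.59 CPM in rescue replicates 1 to 4. The rescue against mutant values of the family are therefore a description without a test, and *bath-20* is described in every comparison without a test of its own.

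MATH stands for meprin and TRAF homology, a fold that binds other proteins. A BATH protein joins this fold to a BTB domain, which docks onto CUL-3, so that proteins of this kind can bring substrates to a CUL-3 ubiquitin ligase, as MEL-26 does for the katanin subunit MEI-1 in the early embryo. A MATH protein in this naming lacks the BTB domain, and 1 of them, MATH-33, is the worm counterpart of the deubiquitinase USP7 and acts on the FOXO factor DAF-16. Both gene sets are greatly expanded in nematodes, and most members have no assigned role, so that a gene named below without a role is one for which none is stated here.

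RNA came from whole mid-L4 larvae grown on HT115 bacteria with the empty L4440 vector, about 1000 worms from an independent timed egg lay for each of 12 samples. The 3 groups of 4 samples were wild type (N2), *raga-1(ok386)* mutants, which lack the Rag GTPase that activates TORC1, and *raga-1(ok386)* mutants with the extrachromosomal array *rab-3p::raga-1::SL2::mCherry*, called rescue. The rescue worms carry the same *raga-1* deletion as the mutants, an array of this kind can be lost from some cells, and the study notes that such promoters can also be active in the intestine. Rescue worms were picked one by one under a fluorescence microscope, whereas the other worms were washed off plates, so that strain and handling cannot be told apart. The paper reports that *raga-1* mutants are small and develop late, and that neuronal *raga-1* from a single-copy transgene restored neither. How closely the groups matched in stage within L4 was not tested.

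Libraries held 14287510 to 35619305 estimated counts. The label check gave 61.8 to 70.2 CPM of *raga-1* in wild type, 1.42 to 1.76 CPM in mutants and 805 to 891 CPM in rescue. The wild type samples lay far apart from each other, at a mean distance of 71.9 to 91.7 (Euclidean, log2 CPM over all tested genes) from the rest of their group, against 41.8 to 48.6 in mutants and 42.4 to 45.5 in rescue. Within wild type, replicates 2 and 4 lay closest, at 48.6, and replicates 1 and 3 next, at 59.7. The summed level of 7 cuticle and hypodermis genes ran from 656 to 5078 CPM in wild type, 1546 to 2093 CPM in mutants and 1845 to 3346 CPM in rescue. The counts of members and of CUL-3 ligase genes called below were therefore also taken without wild type replicates 1 and 3 and without replicates 2 and 4, and what part this spread has in the results was not tested.

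The family sits mostly in one place. In the WBcel235 assembly with Ensembl 115 genes, 79 of the 93 members lie on chromosome II, 5 on chromosome I, 4 on III, 3 on V, and 1 each on IV and X. Joining members less than 200 kb apart gave a chromosome II region from 1510287 to 2155220 that holds 63 members, 18 *bath* and 45 *math* genes. Outside it lie 26 of the 44 *bath* genes but only 4 of the 49 *math* genes. The annotation calls 74 members protein coding and 19 pseudogenes.

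Of the 93 members, 65 passed the filter on low counts and were tested, 39 *bath* and 26 *math* genes. The 28 others comprised 23 *math* and 5 *bath* genes, 22 of them in the large chromosome II region and 10 annotated as pseudogenes. They were low in every group: the highest mean over the 12 samples was 0.337 CPM, 17 never exceeded 3 counts in a sample, and *math-13* and *math-29* had 0 counts throughout. At the depth of these libraries 3 counts correspond to 0.0842 to 0.210 CPM, so the levels of those 17 could not be told from absence. The others exceeded 3 counts in some sample, and the highest by mean CPM, *math-46*, had a mean of 8.42 counts. A member could pass the filter through 1 group alone, so that the tested members do not stand for the whole family.

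Levels differed widely among the tested members. By mean wild type level, 10 of the 65 were under 1 CPM, 37 between 1 and 10, 12 between 10 and 40, and 6 above 40 CPM. Per kilobase of exon, *math-33* was highest in wild type, at 61.0 ± 4.42 CPM per kb (SD, n = 4). Next came *bath-42* at 53.7 ± 3.72, *bath-40* at 51.1 ± 3.54, *bath-44* at 30.0 ± 2.85, *bath-41* at 27.0 ± 4.80 and *bath-43*, the counterpart of human SPOP (*spop-1* in Ensembl 115), at 25.6 ± 1.94 CPM per kb. *bath-42* and *bath-40* lay within 1 SD of each other, and *bath-41* differed from each of its neighbours in this order by less than its own SD. All 6 lie outside the large region of chromosome II, where the highest member per kilobase was *bath-5* at 14.6 ± 1.23 CPM per kb.

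The 5 members with the most counts held similar levels in the 3 groups. *math-33* (chromosome V, 11113907 to 11118824) measured 283, 245, 261 and 242 CPM in wild type, 269, 267, 273 and 258 CPM in mutants and 269, 273, 240 and 278 CPM in rescue. The 3 ranges overlap over most of their width. Its log2 fold change was 0.05 ± 0.06 (SE) in mutants and 0.04 ± 0.06 in rescue, each against wild type. For *bath-42*, *bath-40*, *bath-44* and *bath-43* the log2 fold changes lay between 0.10 and 0.19 in mutants and between -0.05 and 0.07 in rescue. None of the 5 passed an adjusted p of 0.01 (edgeR's quasi-likelihood test, Benjamini-Hochberg adjustment over 15728 genes), with adjusted p from 0.0537 to 0.586 in mutants and from 0.433 to 0.710 in rescue.

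Summed over all 93 members, the family took 921, 958, 931 and 924 CPM in wild type, 1024, 1032, 1049 and 1030 CPM in mutants and 1004, 1072, 1008 and 1073 CPM in rescue. Every mutant and rescue sample was thus above every wild type sample. The *math* genes without *math-33* measured 199 to 214 CPM in wild type, 225 to 270 CPM in mutants and 263 to 310 CPM in rescue, with no overlap between either strain and wild type. *math-3*, *math-26* and *math-27* alone made up 85.2 to 94.6 CPM of this in wild type, 115 to 138 CPM in mutants and 131 to 150 CPM in rescue. The *bath* genes overlapped between groups, at 426 to 515 CPM in wild type, 502 to 530 CPM in mutants and 472 to 504 CPM in rescue. In whole worms, fewer cells that express a gene and less RNA per cell cannot be told apart.

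**Figure D1:**
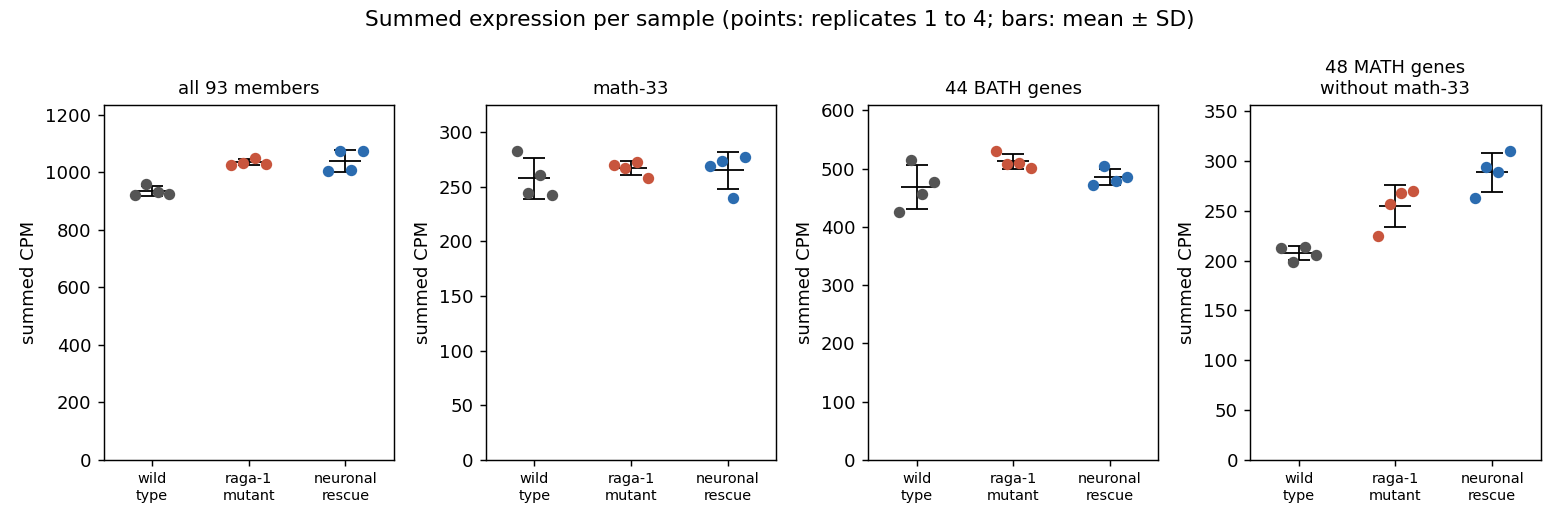
Summed expression in CPM (y axis) of all 93 members, of *math-33*, of the 44 *bath* genes and of the 48 *math* genes without *math-33*, in wild type, *raga-1* mutants and neuronal rescue; points are the 4 samples of a group and bars the mean ± SD. The *math* genes without *math-33* lie at 199 to 214 CPM in wild type and at 225 CPM or more in every other sample, while *math-33* itself overlaps between the groups.

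To see how the family differs in worms without *raga-1*, mutants were compared with wild type. In these whole larvae 7 members rose and 4 fell at an adjusted p under 0.01, which is 11 of the 65 tested members or 16.9%, beside 15.4% of all genes tested. By direction, 10.8% of members rose against 6.36% of all genes, and 6.15% fell against 9.01% of all genes. Among the 7 is *bath-25*, which passed the filter through the strains in which it was higher. The median log2 fold change was 0.06 over the members and 0.00 over all genes, with 37 of 65 members and 7915 of 15728 genes above 0. The *math* genes had a median of 0.27, with 5 higher and 3 lower, and the *bath* genes one of 0.05, with 2 higher and 1 lower. Counts of members called were 4 higher and 2 lower with collection day as a block, beside 979 genes in place of 2418 over the whole table. They were 9 higher and 2 lower of 68 tested without wild type replicates 1 and 3, beside 1176 and 1205 of 16012 genes. Without wild type replicates 2 and 4 they were 6 higher and 5 lower of 68, beside 2084 and 2224 of 16046 genes. In that setting the share of members called was below that of all genes in both directions.

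*bath-47* had the clearest rise. It lies on chromosome II from 1601811 to 1604621 (plus strand, protein coding) and measured 3.48, 2.58, 2.39 and 2.25 CPM in wild type, 9.54, 8.91, 10.3 and 7.94 CPM in mutants and 7.92, 9.79, 9.54 and 10.3 CPM in rescue. Every mutant and rescue sample was more than any wild type sample by a wide margin, and the mutant and rescue ranges coincide. The log2 fold change was 1.80 ± 0.15 in mutants (adjusted p = 9.03e-06) and 1.83 ± 0.14 in rescue (adjusted p = 5.75e-06). It was higher on all 3 collection days that wild type shared with each strain. Its gene overlaps *bath-33* on the other strand by 22 bases.

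A set of 3 neighbours on the plus strand of chromosome II, *math-27* (1767811 to 1770955), *math-26* (1771647 to 1774942) and *math-3* (1772085 to 1778542), rose together. *math-27*, annotated as a pseudogene although it held 1041 counts per sample on average, measured 23.4, 30.6, 23.2 and 32.0 CPM in wild type and 37.0, 50.1, 51.1 and 47.7 CPM in mutants. *math-26* measured 34.1, 30.3, 36.3 and 32.5 CPM in wild type and 44.0, 44.0, 43.7 and 48.3 CPM in mutants. *math-3* measured 27.8, 29.0, 27.4 and 30.1 CPM in wild type and 33.7, 39.3, 39.1 and 42.0 CPM in mutants. For each of the 3, all mutant samples lay above all wild type samples. The log2 fold changes were 0.77 ± 0.13 (adjusted p = 0.0014), 0.43 ± 0.06 (adjusted p = 0.000636) and 0.43 ± 0.07 (adjusted p = 0.000885). *math-26* and *math-3* overlap over 2858 bases but share only 20 exonic bases, and 19.6% of the exonic length of *math-3* is also in F36H5.14, so that the split of reads there is uncertain.

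Further along the same region, *math-24* (1900234 to 1901975) and *math-22* (1905404 to 1907831) were higher in mutants by 0.60 ± 0.14 (adjusted p = 0.00754) and 0.40 ± 0.09 (adjusted p = 0.0079) on the log2 scale. *math-24* measured 5.58, 5.93, 7.59 and 5.83 CPM in wild type and 7.76, 8.48, 10.8 and 10.9 CPM in mutants, and *math-22* 15.1, 13.1, 14.1 and 13.1 CPM against 15.9, 19.4, 18.7 and 19.3 CPM. Neither pair of groups overlapped. The call of *math-24* was lost without 1 of wild type replicates 1, 2 or 4, mutant replicates 2, 3 or 4 and rescue replicates 1 or 2 (adjusted p up to 0.0255), and that of *math-22* without wild type replicates 2, 3 or 4, mutant replicates 2, 3 or 4 or rescue replicates 2 or 3 (up to 0.0274). With collection day as a block the adjusted p was 0.0118 and 0.0127, and both calls were also lost without wild type replicates 2 and 4. Both were lost as well when only the 2 groups compared were fitted. The call of *math-22* was also lost with libraries scaled by size alone and with a replicate block by number.

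*bath-25*, on chromosome I (10876200 to 10877741), was the seventh member to rise and the lowest, and passed the filter through the strains in which it was higher. Its adjusted p is therefore a description and lends no support to a rise. It measured 0.217, 0.446, 0.117 and 0.466 CPM in wild type, from 3 to 12 counts a sample, and 0.609, 1.73, 1.40 and 0.987 CPM in mutants. The groups did not overlap, and the log2 fold change was 1.90 ± 0.46 (adjusted p = 0.00988). The call was lost without any 1 of the 4 wild type samples, mutant replicates 2, 3 or 4 or rescue replicates 1, 3 or 4 (adjusted p up to 0.0364), and with collection day as a block (0.0392). Its log2 fold change was 1.38 without wild type replicates 1 and 3 (adjusted p = 0.0499) and 2.93 without replicates 2 and 4 (adjusted p = 0.00459). The call was also lost when only the 2 groups compared were fitted, with libraries scaled by size alone and with a replicate block by number.

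**Figure D2:**
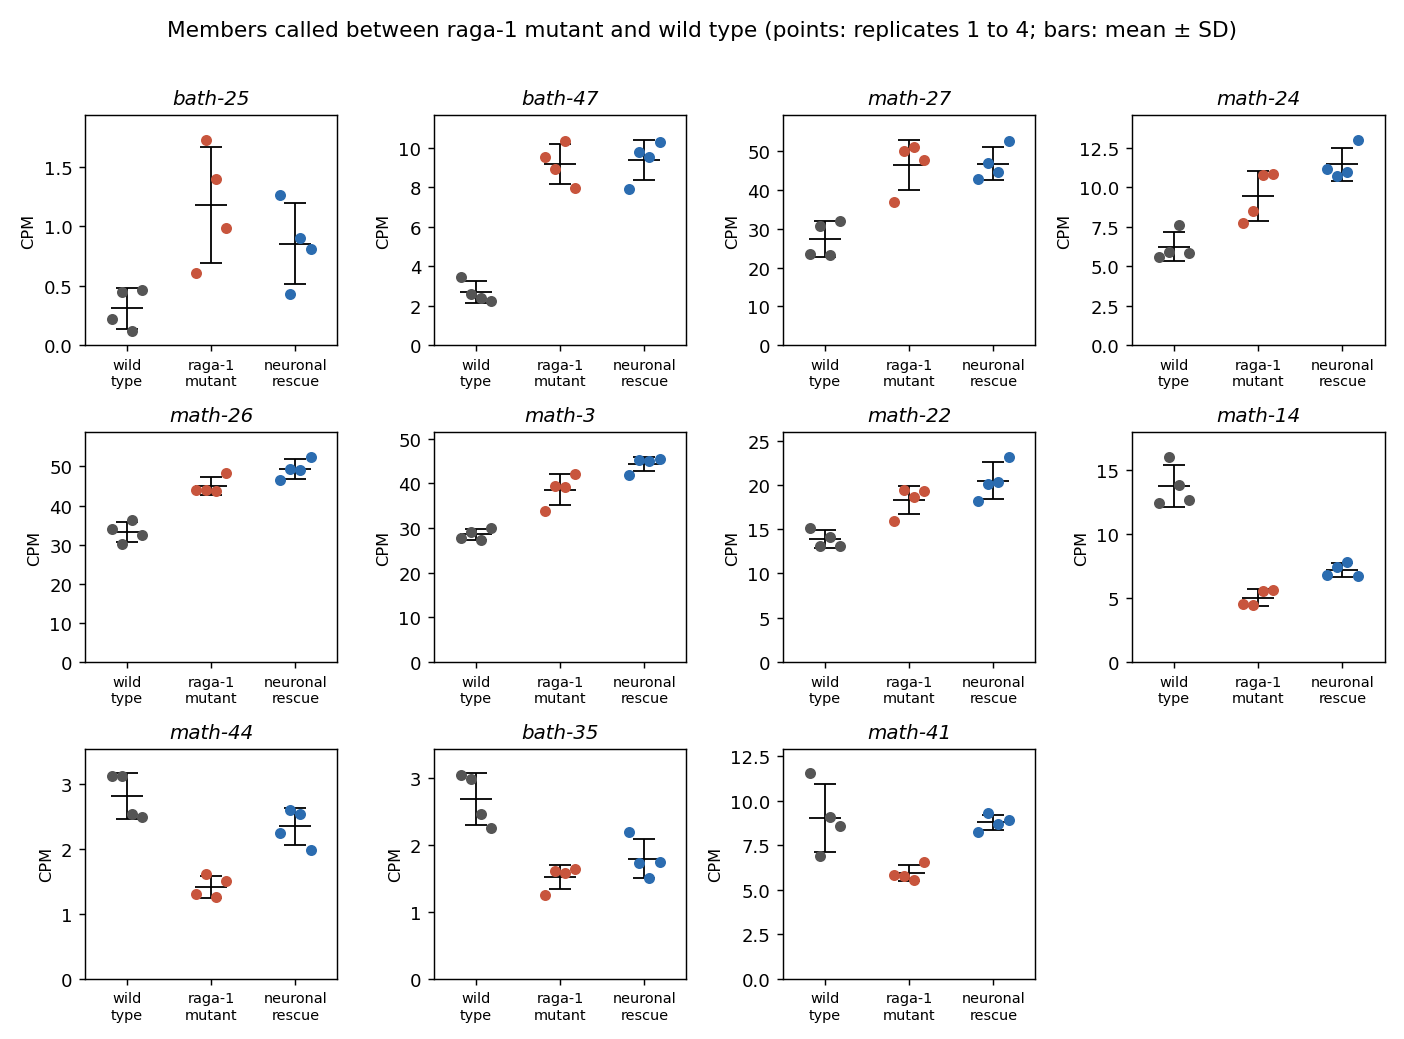
CPM (y axis, each panel with its own scale from 0) of the 11 members called between mutant and wild type, in the 4 samples of each group; points are replicates 1 to 4 from left to right and bars the mean ± SD. *bath-47* lies at 2.25 to 3.48 CPM in wild type and at 7.92 CPM or more in both strains, and *math-14* at 12.5 to 16.1 CPM in wild type and at 7.84 CPM or less in both strains.

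Of the 4 members that fell in mutants, *math-14* (chromosome II, 1869420 to 1870805) fell furthest. It measured 12.5, 16.1, 13.9 and 12.7 CPM in wild type, 4.51, 4.45, 5.54 and 5.64 CPM in mutants and 6.78, 7.46, 7.84 and 6.72 CPM in rescue. The 3 ranges are separate, with rescue between the other two. Against wild type the change on the log2 scale was -1.46 ± 0.12 in mutants (adjusted p = 8.24e-06) and -0.94 ± 0.11 in rescue (adjusted p = 8.63e-05). Its neighbour *math-15*, next upstream on the same strand, had -1.08 ± 0.36 in mutants and did not pass (adjusted p = 0.0409).

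*math-44* (1989310 to 1990535) measured 3.12, 3.12, 2.54 and 2.49 CPM in wild type, 1.30, 1.62, 1.25 and 1.5 CPM in mutants and 2.25, 2.61, 2.54 and 1.99 CPM in rescue. The mutant samples lay below all others, and rescue overlapped wild type. On the log2 scale the change was -0.97 ± 0.15 in mutants (adjusted p = 0.000666) and -0.26 ± 0.14 in rescue (adjusted p = 0.166). *math-41* (1824629 to 1830228) had the same order, with 11.5, 6.86, 9.08 and 8.59 CPM in wild type, 5.85, 5.79, 5.54 and 6.58 CPM in mutants and 8.25, 9.28, 8.71 and 8.88 CPM in rescue. Its log2 fold change was -0.59 ± 0.13 in mutants (adjusted p = 0.00653) and -0.03 ± 0.13 in rescue (adjusted p = 0.875). Its mutant call was lost when only the 2 groups compared were fitted, with libraries scaled by size alone and with a replicate block by number. The mutant call of *math-41* was lost without wild type replicates 3 or 4, any of the 4 mutant samples or rescue replicates 3 or 4 (adjusted p up to 0.0216), with collection day as a block (0.0297) and without wild type replicates 1 and 3, where the log2 fold change was -0.39 (0.0292).

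*bath-35*, on chromosome I (12758186 to 12759577), measured 3.04, 2.99, 2.47 and 2.25 CPM in wild type, 1.26, 1.62, 1.59 and 1.64 CPM in mutants and 2.20, 1.74, 1.51 and 1.75 CPM in rescue. Both strains lay below all wild type samples. Changes on the log2 scale were -0.80 ± 0.16 in mutants (adjusted p = 0.00332) and -0.57 ± 0.16 in rescue, which did not pass (adjusted p = 0.013). The mutant call was lost with collection day as a block (adjusted p = 0.0193) and without wild type replicates 1 and 3 (0.0117).

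The second comparison set rescue worms against wild type, which asks which of these differences remain when *raga-1* is returned to neurons. It shares its wild type samples with the comparison of mutants, and its rescue samples with the contrast by which *bath-20* chose the family. Without *bath-20*, 14 members were called higher and 1 lower, which is 23.4% of the other 64 tested members beside 23.7% of all genes. The directions were uneven: 21.9% of these members against 10.2% of all genes were higher, and 1.56% against 13.5% were lower. Among the 14 is *math-38*, which passed the filter through the strains in which it was higher. With libraries scaled by size alone the members again numbered 14 higher and 1 lower, while all genes went from 1602 higher and 2119 lower to 2142 higher and 1146 lower. The median log2 fold change was 0.12 over the members and 0.04 over all genes, with 8499 of 15728 genes above 0. Of the 26 *math* genes 10 were higher and 1 lower, with a median of 0.54 and 21 above 0, and of the 38 *bath* genes without *bath-20* 4 were higher, with a median of 0.07 and 23 above 0. Again without *bath-20*, 9 of 64 members were higher and 1 lower with collection day as a block, beside 768 and 1094 of 15728 genes. Without wild type replicates 1 and 3, 18 of 67 were higher and 3 lower, beside 2420 and 2259 of 16012 genes. Without wild type replicates 2 and 4, 9 of 67 were higher (13.4%) and 1 lower (1.49%), beside 2097 and 2181 of 16046 genes. In that setting the share of members called higher was near that of all genes, and the share lower was below it.

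Of the marker lists, those of neurons and of the germ line were separate in all 3 groups, and the others overlapped between some groups. The summed level of 10 neuron genes was 331 to 355 CPM in wild type, 380 to 389 CPM in mutants and 413 to 458 CPM in rescue. The 35 major sperm protein genes summed to 5090 to 7582 CPM in wild type, 4040 to 5480 CPM in mutants and 2843 to 3278 CPM in rescue, with 2 of them at 0 in some sample. The 10 germ line genes gave 2475 to 2741, 2211 to 2310 and 1989 to 2199 CPM in the same order, 7 intestine genes 1934 to 2479, 2348 to 2493 and 2159 to 2308 CPM, and 7 muscle genes 13913 to 15228, 15410 to 16809 and 14490 to 16724 CPM. The array ends in the *unc-54* 3'UTR and *unc-54* is in the muscle list. Whether reads of the array entered the muscle sum in rescue was not tested. No gene of these lists was at 0 in every sample, and the part of these tissues in the values of the family was not tested.

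The 6 members that rose in mutants and lie on chromosome II were also higher in rescue. *math-27* measured 42.8, 47.0, 44.5 and 52.6 CPM in rescue, at a log2 fold change of 0.77 ± 0.13 (adjusted p = 0.000807). *math-26* measured 46.5, 49.3, 49.0 and 52.5 CPM, at 0.57 ± 0.06 (adjusted p = 6.28e-05), and *math-3* 41.8, 45.1, 44.9 and 45.4 CPM, at 0.63 ± 0.07 (adjusted p = 4.12e-05). *math-24* measured 11.2, 10.7, 11.0 and 13 CPM, at 0.88 ± 0.14 (adjusted p = 0.000491), and *math-22* 18.1, 20.1, 20.4 and 23.2 CPM, at 0.56 ± 0.09 (adjusted p = 0.000743). None of these ranges touched that of wild type. *bath-25* was at 1.27, 0.434, 0.904 and 0.813 CPM in rescue, which overlaps wild type, and did not pass (log2 fold change 1.41 ± 0.47, adjusted p = 0.0348).

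Another 8 members, beside *bath-20*, were called higher in rescue without a call in mutants, and a call in 1 comparison alone does not show that the strains differ. *math-40* (1830632 to 1831803) and *math-39* (1832338 to 1833522) lie side by side next to *math-41*. *math-40* measured 4.06, 3.25, 3.64 and 2.91 CPM in wild type, 3.86, 4.40, 4.92 and 4.37 CPM in mutants and 5.18, 5.76, 6.50 and 7.29 CPM in rescue. *math-39* measured 3.19, 2.18, 3.33 and 2.84 CPM in wild type, 3.09, 3.72, 4.97 and 3.99 CPM in mutants and 3.63, 5.92, 5.99 and 6.54 CPM in rescue. Rescue lay above wild type in every sample of both genes, and mutants overlapped wild type. Against wild type *math-40* had log2 fold changes of 0.85 ± 0.14 in rescue (adjusted p = 0.000673) and 0.35 ± 0.14 in mutants (adjusted p = 0.0849), and *math-39* of 0.94 ± 0.21 (adjusted p = 0.00412) and 0.45 ± 0.21 (adjusted p = 0.131). The call of *math-39* was lost without wild type replicate 4 or rescue replicates 2, 3 or 4 (adjusted p up to 0.0128). It was also lost without wild type replicates 2 and 4 (log2 fold change 0.77, adjusted p = 0.0251). When only the 2 groups compared were fitted it was lost too.

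*bath-26* (1599461 to 1600761, minus strand) lies just upstream of *bath-47* on the other strand and measured 2.75, 0.980, 1.53 and 0.971 CPM in wild type, 2.84, 2.47, 3.57 and 2.77 CPM in mutants and 4.65, 3.36, 3.25 and 3.46 CPM in rescue. Wild type replicate 1 reached the mutant range. Fitted log2 fold changes were 1.30 ± 0.28 in rescue (adjusted p = 0.00394) and 0.96 ± 0.29 in mutants (adjusted p = 0.0268). The rescue call was lost without wild type replicates 3 or 4 or rescue replicate 1 (adjusted p up to 0.0132) and with the day block (0.0468). It was also lost without wild type replicates 2 and 4 (log2 fold change 0.84, adjusted p = 0.0203). When only the 2 groups compared were fitted it was lost too.

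At the other end of the region *math-37* (2116884 to 2122191) measured 3.41, 1.51, 3.99 and 2.84 CPM in wild type, 3.33, 3.94, 6.03 and 4.89 CPM in mutants and 6.0, 5.21, 6.46 and 9.19 CPM in rescue. Only rescue was clear of wild type. Its log2 fold change was 1.20 ± 0.28 in rescue (adjusted p = 0.00597) and 0.63 ± 0.29 in mutants (adjusted p = 0.122). The call was lost without wild type replicate 4 or rescue replicates 1, 3 or 4 (adjusted p up to 0.0185) and with the day block (0.0227). It was also lost when only the 2 groups compared were fitted. Without wild type replicates 2 and 4 it was lost too, at a log2 fold change of 0.85 (adjusted p = 0.0226), against 1.61 without replicates 1 and 3 (adjusted p = 0.00176).

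*math-38* (1577378 to 1579986) had few counts, and passed the filter through the strains in which it was higher. Since it entered the test that way, its adjusted p is a description and lends no support to a rise. It measured 0.0725, 0.0446, 0.157 and 0.233 CPM in wild type, which is 1, 1, 4 and 6 counts, 0.609, 0.624, 0.386 and 0.141 CPM in mutants and 0.653, 1.22, 0.837 and 0.482 CPM in rescue. Rescue lay above wild type in every sample, and mutant replicate 4 was within the wild type range. The log2 fold change was 2.50 ± 0.53 in rescue (adjusted p = 0.00316) and 1.72 ± 0.57 in mutants (adjusted p = 0.0404). The rescue call was lost without wild type replicates 1 and 3 (adjusted p = 0.014) and without replicates 2 and 4 (0.0122), it fell just outside the threshold with the day block, and the gene was not tested where 10 counts were asked of every sample.

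*bath-45* lies apart from the others on chromosome II (13123020 to 13125189) and measured 1.38, 0.579, 1.10 and 1.05 CPM in wild type, 0.812, 0.681, 0.916 and 0.611 CPM in mutants and 2.12, 1.90, 2.21 and 2.26 CPM in rescue. The rescue samples were above all the others, and the other groups overlapped. Against wild type the log2 fold change was 1.07 ± 0.21 in rescue (adjusted p = 0.00211) and -0.42 ± 0.23 in mutants (adjusted p = 0.202). With the day block the rescue value was 1.09 and no longer passed (adjusted p = 0.0299).

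The last 2 called members were picked for mention after their values were seen. *math-35* (2104524 to 2106866, annotated as a pseudogene) measured 10.0, 8.55, 10.6 and 9.02 CPM in wild type, 11.1, 12.8, 13.7 and 12.4 CPM in mutants and 12, 13.6, 14.7 and 14 CPM in rescue, and *bath-38* (10042780 to 10045270) 14.1, 13, 12.9 and 12.6 CPM, 13.3, 14.2, 14.2 and 15.2 CPM and 16.9, 17.0, 18.2 and 17.2 CPM. Rescue was above wild type throughout in both. The log2 fold change in rescue was 0.51 ± 0.10 for *math-35* (adjusted p = 0.00174), lost without wild type replicates 2 and 4, and 0.40 ± 0.07 for *bath-38* (adjusted p = 0.000784), lost with the day block. In mutants they were 0.39 ± 0.10 (adjusted p = 0.0111) and 0.11 ± 0.07 (adjusted p = 0.231).

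**Figure D3:**
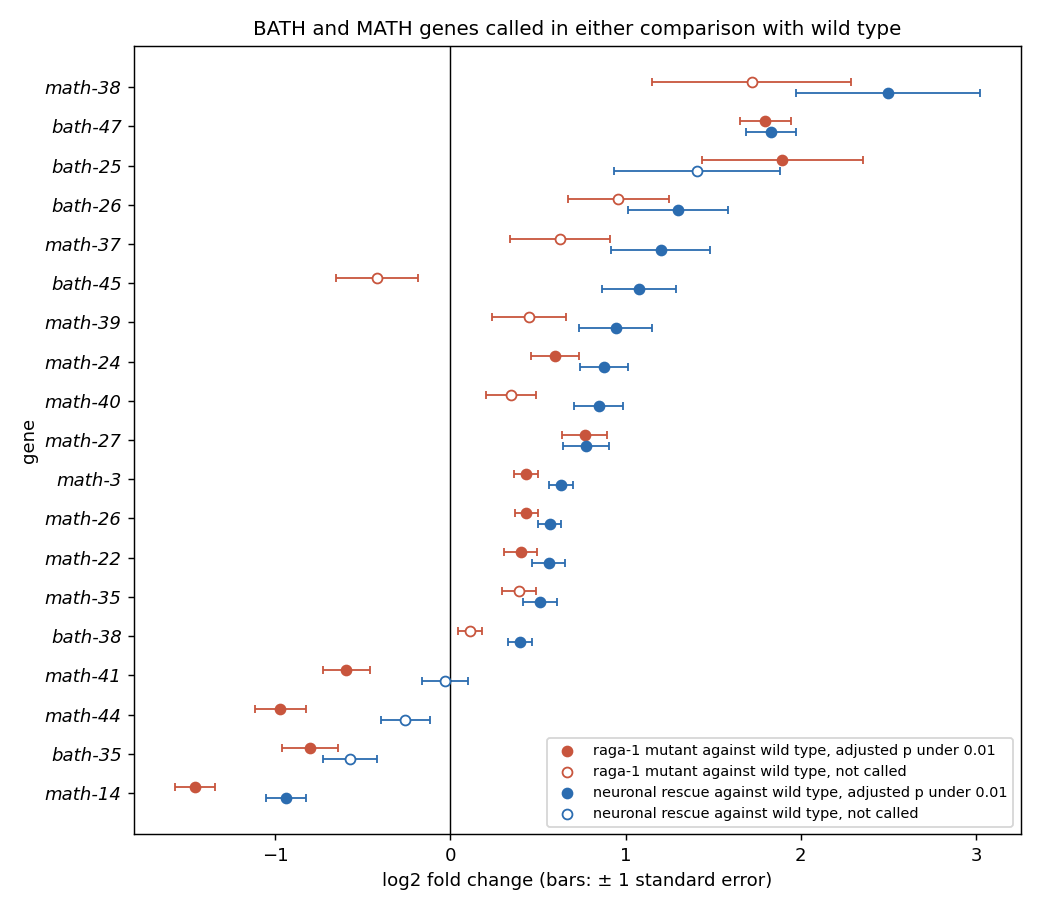
Fitted log2 fold change against wild type (x axis) of the 19 members called in either comparison, *bath-20* left out, in mutants (red) and rescue (blue); bars are ± 1 standard error and filled points passed an adjusted p of 0.01. *bath-47* stands at 1.80 and 1.83, *math-14* at -1.46 and -0.94, and *bath-45* on opposite sides of 0, at -0.42 and 1.07.

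Between rescue and mutants, the contrast that chose the family, values are given as they stand. In the fit 2 members were past the threshold and higher in rescue, and 0 were lower. Over all genes 0.305% were higher and 0.0763% lower (0.381% in all). Since this contrast chose the family, nothing is read from that count. *bath-20* (chromosome II, 2040276 to 2042547, minus strand) measured 1.09, 1.11, 1.41 and 1.05 CPM in wild type, so that rescue replicate 3, at 1.37 CPM, lay within the wild type range while the mutants lay below it. Its log2 fold change was 1.39 ± 0.21 between rescue and mutants, 0.86 ± 0.20 between rescue and wild type and -0.53 ± 0.22 between mutants and wild type. The counts behind these values were 17 to 25 in mutants and 41 to 86 in rescue. For *bath-45* the log2 difference between rescue and mutants was 1.49 ± 0.21. The replicate number was also used as a block over all 12 samples. It marks the shared collection day for these 2 groups, but wild type numbers are of other days. The log2 differences were then 1.38 for *bath-20* and 1.48 for *bath-45*, and nothing is read from this fit either.

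Among the members with a mean of 0.5 CPM or more whose mutant and rescue samples do not overlap, the next largest differences were those of *math-15*, *math-42* and *math-44*. *math-15* (1866381 to 1867894) measured 1.45, 0.891, 2.43 and 0.894 CPM in wild type, 0.487, 0.567, 1.01 and 0.658 CPM in mutants and 1.14, 1.5, 1.57 and 1.96 CPM in rescue, a log2 difference of 1.21 ± 0.35. *math-42* (2099926 to 2104180) measured 2.25, 0.535, 1.49 and 0.583 CPM in wild type, 1.22, 1.11, 1.06 and 0.987 CPM in mutants and 1.51, 1.74, 2.34 and 2.77 CPM in rescue, a log2 difference of 0.94 ± 0.37. Their wild type samples overlap both strains, with replicates 1 and 3 above replicates 2 and 4. *math-44*, given above, had 0.71 ± 0.15. The members together had a median log2 difference of 0.13 beside -0.00 over all genes, where 7783 of 15728 were above 0. The *math* genes had 0.50 with 24 of 26 above 0, and the *bath* genes -0.01 with 19 of 39 above 0. These values include *bath-20* and come from the contrast that chose the family, so nothing is read from them.

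**Figure D4:**
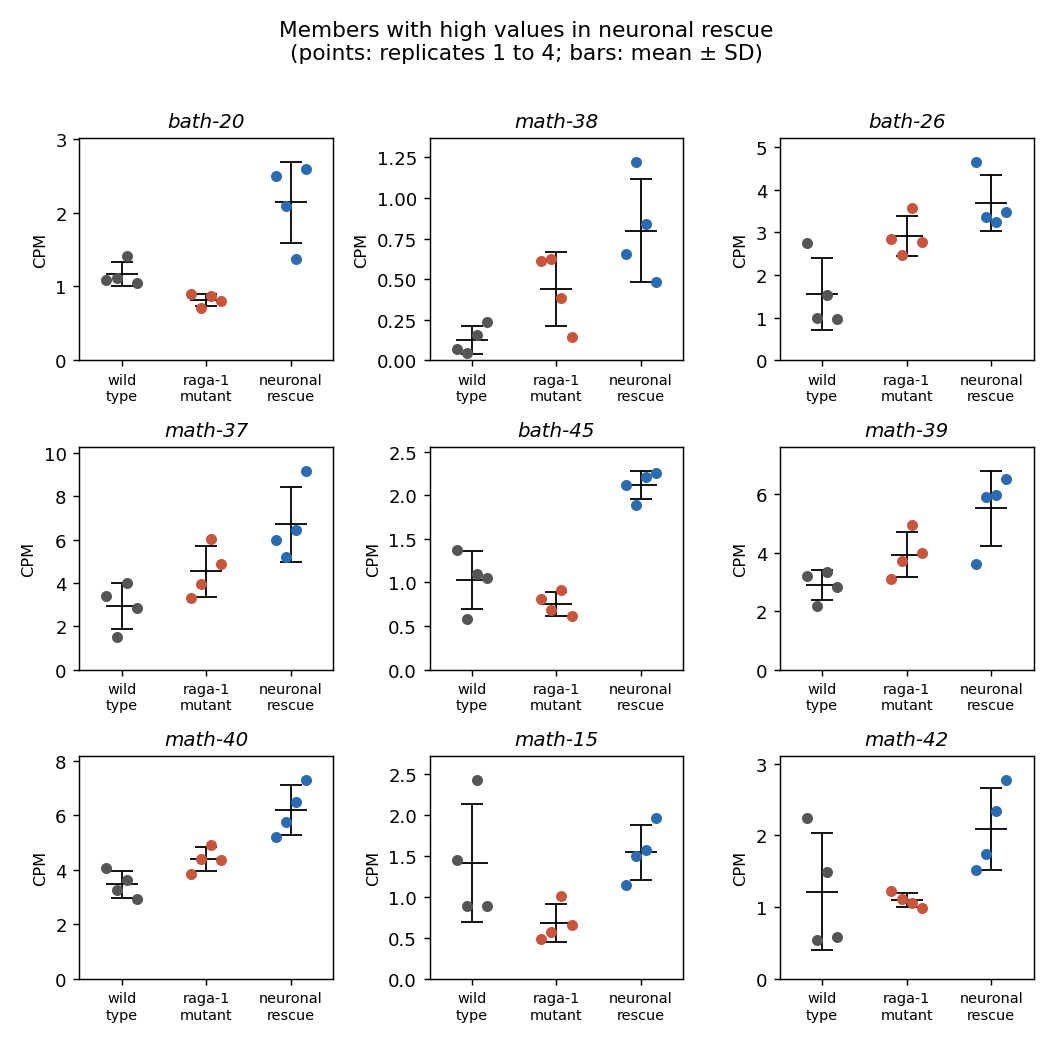
CPM (y axis, each panel with its own scale from 0) of *bath-20* and of 8 other members with high values in rescue, in the 4 samples of each group; points are replicates 1 to 4 from left to right and bars the mean ± SD. *bath-45* lies at 1.90 to 2.26 CPM in rescue and at 1.38 CPM or less elsewhere, while *math-15* in wild type runs from 0.891 to 2.43 CPM.

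In gene order along the large chromosome II region, 41 of the 63 members were tested. In mutants 6 were higher and 3 lower, with a median log2 fold change of 0.04, and in rescue, without *bath-20*, 12 were higher and 1 lower, with a median of 0.23. The 50 other tested genes within the same stretch had 3 higher and 6 lower in mutants (6.0% and 12%, median -0.11) and 8 higher and 5 lower in rescue (16% and 10.0%, median 0.16). In gene order those 12 were *math-38*, *bath-26*, *bath-47*, *math-27*, *math-26*, *math-3*, *math-40*, *math-39*, *math-24*, *math-22*, *math-35* and *math-37*, and whether they lie closer together than other members was not tested. A run of 11 members from *math-11* to *math-25* was too low to test. The members called lower there in mutants were *math-41*, *math-14* and *math-44*. *raga-1* is also on chromosome II, at 11301359 to 11302776, and linkage to it was not tested.

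**Figure D5:**
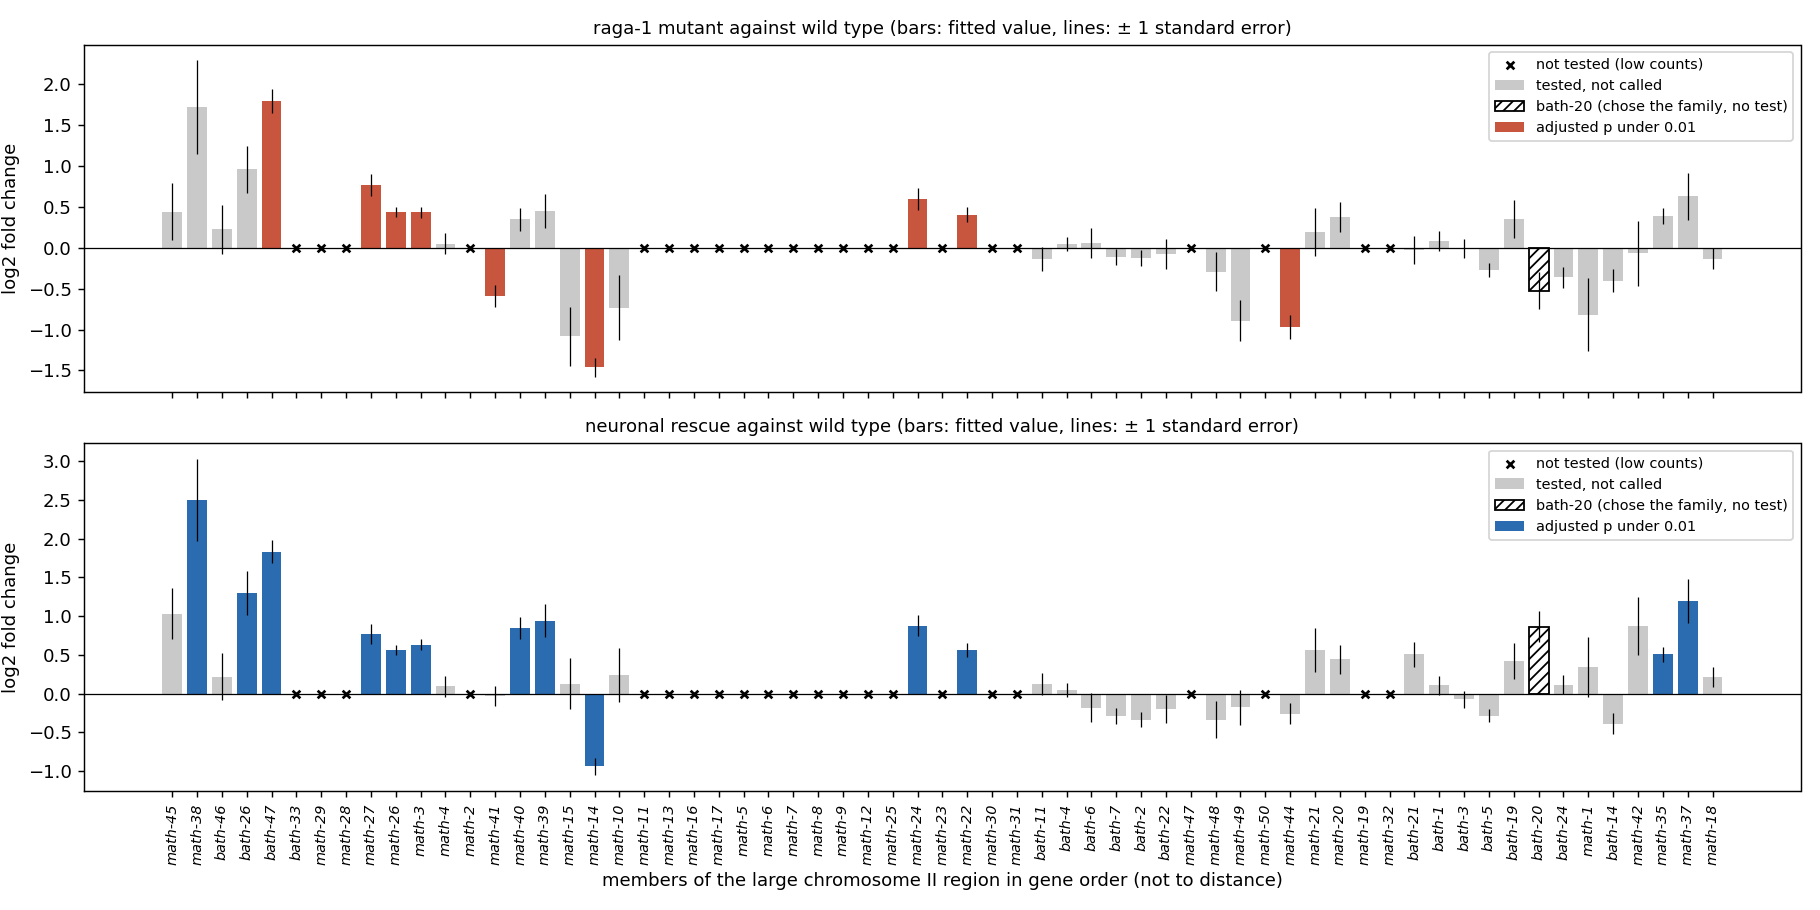
Fitted log2 fold change (y axis, lines ± 1 standard error) of the 63 members of the large chromosome II region in gene order (x axis, not to distance), for mutants (top) and rescue (bottom) against wild type; coloured bars passed an adjusted p of 0.01, crosses were not tested and *bath-20* is hatched. In rescue 12 coloured bars point up, from *math-38* to *math-37*, and 1 points down, *math-14* at -0.94.

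The CUL-3 ligase itself was followed with a list of 27 genes, all tested: the ligase core and its neddylation cycle, the adaptor *mel-26* with its substrate *mei-1* and partner *mei-2*, the other cullins, ubiquitin and its E1. In mutants 2 were higher and 2 lower, and in rescue 0 were higher and 4 lower in edgeR (3 higher at an unadjusted p under 0.05, and 0 higher in DESeq2). Over all genes 6.36% were higher and 9.01% lower in mutants, and 10.2% higher and 13.5% lower in rescue. The median log2 fold change of the list was 0.04 in mutants and 0.00 in rescue. *cul-3*, the scaffold that BATH proteins dock onto, measured 187, 207, 205 and 198 CPM in wild type, 180, 175, 162 and 158 CPM in mutants and 151, 166, 157 and 149 CPM in rescue. Both strains lay below wild type. The log2 fold change was -0.36 ± 0.06 in rescue (adjusted p = 0.000661) and -0.24 ± 0.06 in mutants, just outside the threshold.

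Lower in both strains were *cul-1*, the cullin of SCF ligases, at log2 fold changes of -0.22 ± 0.04 in mutants (adjusted p = 0.00394) and -0.22 ± 0.04 in rescue (adjusted p = 0.00279), and *cif-1*, a subunit shared by the COP9 signalosome and eIF3, at -0.41 ± 0.07 (adjusted p = 0.00104) and -0.51 ± 0.07 (adjusted p = 0.00014). *cand-1*, which binds cullins without NEDD8, was lower in rescue, at -0.24 ± 0.05 (adjusted p = 0.00326), and at -0.20 ± 0.05 in mutants (adjusted p = 0.0116). Higher in mutants were *dcn-1*, which promotes cullin neddylation, at 0.36 ± 0.06 (adjusted p = 0.00138), and the RING subunit *rbx-2*, at 0.32 ± 0.07 (adjusted p = 0.00702). *mel-26* had 0.38 ± 0.17 in mutants and 0.20 ± 0.17 in rescue, neither past the threshold (adjusted p = 0.118 and 0.38). Without wild type replicates 2 and 4, 6 genes of the list were higher in mutants and 4 in rescue. Over all genes 2084 of 16046 were higher in mutants and 2097 in rescue in that setting.

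Among genes with a BTB domain named *btb*, 15 of 22 were tested, with 2 higher and 2 lower in mutants and 3 higher and 2 lower in rescue, to be read beside the same shares of all genes. The median log2 fold change of these 15 was -0.02 in mutants and 0.36 in rescue. *btb-13* had log2 fold changes of 0.89 ± 0.22 in mutants (adjusted p = 0.00957) and 1.43 ± 0.21 in rescue (adjusted p = 0.000281), and *btb-21* of 1.05 ± 0.15 (adjusted p = 0.000494) and 1.16 ± 0.15 (adjusted p = 0.00014). *btb-16* was also higher in rescue, and *btb-2* and *btb-4* were lower in both.

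The spread between replicates also differed by group. The median coefficient of variation of the 65 tested members was 17.2% in wild type, 11.0% in mutants and 12.3% in rescue. For the 29 members with a mean of 5 CPM or more it was 11.6%, 8.23% and 7.22%. Reads of near-identical members can be shared between them by the abundance estimate, and sequence similarity among the members was not examined here.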

How the data were processed

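Poly(A) RNA libraries (TruSeq Stranded mRNA, paired-end reads) of 12 samples were analysed. The authors used the bcbio-nextgen pipeline, with STAR alignment to Ensembl 94 for quality checks, Salmon and tximport, and deposited estimated counts per gene (expected counts, not normalized between samples). The submitters' processing notes also name CASAVA, DESeq2 and WBcel235, and tool versions are not given in the sources used here. A second deposited table of normalized values was not used.

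Estimated counts were rounded to whole numbers, filtered with filterByExpr (15728 genes kept), scaled by TMM (factors 0.951 to 1.08) and fitted over all 12 samples with a mean per group by edgeR 4.0.16 (quasi-likelihood test, R 4.3.3), with Benjamini-Hochberg adjustment over all genes tested and a threshold of 0.01. CPM are estimated counts scaled to effective library size, and SD are over 4 samples. Log2 fold changes come from the fit with their standard errors. Gene positions and biotypes come from Ensembl 115. The script was tested on simulated data. The floor of 3 counts covers counting error only, and p-values measure the spread between independent egg lays.

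The members and the gene lists were chosen with earlier results of these data known. Named members were *bath-20*, called members whose groups do not overlap (at most 8 per direction and comparison with the largest fold changes), the 5 with the most counts, *math-33*, and up to 5 with the largest difference between rescue and mutants. Mutant and rescue samples with the same number were collected on the same day by the labels. The wild type numbers are of other days, and wild type shares 3 days with each strain. Correlations of deviations between same-numbered mutant and rescue samples were -0.02, 0.15, -0.14 and 0.01. Alternatives were DESeq2 1.42.0, other scalings and filters, a replicate block by number or by day, only 2 groups, each sample left out, and a threshold of 0.05. Leaving out pairs of wild type samples was chosen after seeing the data.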

Additional observations from a re-analysis of the deposited data

Results flagged for a closer look

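In 4 of 75 sets of 4 samples (25 named members in 3 groups) 1 sample lay far from the other 3 by Dixon's test, and chance gives about 1 in 20. *math-26* measured 48.3 CPM in mutant replicate 4, above the 3 others at 43.7 to 44.0 CPM. *math-3* measured 41.8 CPM in rescue replicate 1, below the others at 44.9 to 45.4 CPM. *bath-35* measured 1.26 CPM in mutant replicate 1, below the others at 1.59 to 1.64 CPM. *bath-26* measured 4.65 CPM in rescue replicate 1, above the others at 3.25 to 3.46 CPM.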

How the results depend on the processing

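No called member among those named by the rule changed direction under any setting. The directions of *bath-38* and *math-35* were not recorded by setting. Counts of members higher in rescue here include *bath-20* where it was called. Nothing is read from its calls, nor from the counts in rescue against mutants, the contrast that chose the family. In mutants against wild type *bath-47*, *math-14*, *math-26*, *math-27*, *math-3* and *math-44* were called under all 12 fits that left out 1 sample and all 10 other settings. The same held in rescue against wild type for *bath-47*, *math-14*, *math-22*, *math-24*, *math-26*, *math-27*, *math-3* and *math-40*. Leaving out 1 sample gave 4 to 7 members higher and 3 to 4 lower in mutants, 11 to 15 higher and 1 to 2 lower in rescue, and 0 to 2 higher and 0 lower in rescue against mutants. The value of 4 came without wild type replicate 4 or mutant replicates 2, 3 or 4. For the CUL-3 list it gave 1 to 3 higher and 1 to 3 lower in mutants and 0 higher and 2 to 6 lower in rescue.

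DESeq2 called 3 members lower in rescue and 4 higher in rescue against mutants, and 4 genes of the CUL-3 list lower in mutants and 7 in rescue. Of all 20700 genes in that fit, 1846 were lower in mutants, 2672 lower in rescue and 188 higher in rescue against mutants. With library size alone the CUL-3 list had 1 higher and 1 lower in mutants and 1 higher and 2 lower in rescue, and the median log2 fold change of all genes in rescue went from 0.04 to 0.14, beside 0.22 for the members. Without a filter beyond 1 count the list had 1 higher and 1 lower in mutants. With the replicate block by number the list had 1 higher and 1 lower in mutants, and 0 members were higher in rescue against mutants. With the replicate block by collection day, members were 4 higher and 2 lower in mutants, 9 higher in rescue and 0 higher in rescue against mutants, and the list had 1 higher and 1 lower in mutants. With only the 2 groups compared, 4 members were higher in mutants, and the list had 1 higher and 1 lower in mutants and 2 lower in rescue. Of all genes 566 of 15307 were then higher and 821 lower in mutants, and 1478 of 15564 lower in rescue. In mutants 960 genes were higher and 956 lower with library size alone, and 817 and 1144 with the block by number. Without a filter beyond 1 count they were 908 and 1184 of 20700.

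Without wild type replicates 1 and 3, members were 2 lower in mutants, 3 lower in rescue and 4 higher in rescue against mutants, and the list had 1 higher and 1 lower in mutants. Without wild type replicates 2 and 4, 9 members were higher in rescue, and the list had 6 higher in mutants and 4 higher in rescue. Over all genes 2084 of 16046 were then higher in mutants and 2097 in rescue. At an adjusted p under 0.05, members were 11 higher and 8 lower in mutants, 7 lower in rescue and 4 higher in rescue against mutants, and the list had 4 higher and 5 lower in mutants and 3 higher and 8 lower in rescue. Filters changed the number of members tested, from 57 with 10 counts in every sample to 91 with 1 count in any. The cause of the other changes was not tested. Over all genes, 2418 were called in mutants, 3721 in rescue and 60 between rescue and mutants, beside 979, 1862 and 7 with the day block, 4578, 6095 and 264 at 0.05, and 1434 to 2601, 2702 to 4019 and 19 to 148 with 1 sample left out. With only the 2 groups compared 1387 were called in mutants and 556 between rescue and mutants. Without wild type replicates 2 and 4 it was 4308 in mutants, 4278 in rescue and 165 between rescue and mutants. Between rescue and mutants DESeq2 called 324, library size alone 94, the block by number 34 and leaving out wild type replicates 1 and 3 568. Depth limits the members under 1 CPM.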
